A study of Mus musculus with 15 samples.

Results

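The nuclear-encoded subunits of the mitochondrial respiratory chain were followed in sorted mouse aortic macrophages. Members were taken by name from the deposited count table: protein-coding genes whose symbols begin with Ndufa, Ndufb, Ndufc, Ndufs, Ndufv, Uqcr, Cox4, Cox5, Cox6, Cox7, Cox8 or Atp5, without the Ndufaf assembly factors, together with Sdha, Sdhb, Sdhc, Sdhd and Cycs. The rule used no measured value and gave 86 genes of 47729 features. Of these, 38 are named for complex I, 4 belong to complex II, 8 to complex III, 18 are named for complex IV and 17 for complex V, and Cycs encodes cytochrome c.

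The tested cells were F4/80+ CD64+ macrophages sorted as Olfr2+ from aortas, and the cells they were set against were F4/80+ CD64+ macrophages sorted as Olfr2-. Olfr2 is an olfactory receptor gene. Both sorts came from female Apoe-/- mice, whose genotype field reads Apoe dko, after 4 weeks on a Western diet that the treatment field calls High Fat Diet. All groups therefore share Apoe deficiency and the diet, and neither a wild-type nor a chow group is part of the comparison. Cell suspensions of 4 aortas were pooled and sorted into technical replicates of 100 to 200 cells, which were amplified by Smart-Seq2 with 18 cycles of PCR before and 9 cycles during library preparation. The 15 columns carry a number and a letter, 10 for Olfr2+ (2A to 2D, 3A to 3D, 4A and 4B) and 5 for Olfr2- (1A, 3A, 3B, 4A and 4B). Columns of a number were summed, giving 3 samples for each label, since the labels count 3 per group. Nothing in the labels says that these samples came from separate pools of mice, so a p-value measures only the spread between them, which may be technical.

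The electron transport chain carries electrons from NADH through complex I, and from succinate through complex II, to ubiquinone, then through complex III, cytochrome c and complex IV to oxygen. Complexes I, III and IV pump protons across the inner mitochondrial membrane, and complex V, the ATP synthase, uses the gradient to make ATP. Most subunits come from nuclear genes, while the mitochondrial genome encodes core parts of complexes I, III, IV and V. In macrophages, complex I and succinate dehydrogenase are known for their part in inflammatory activation, and oxidative phosphorylation for its part in alternative activation.

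The columns stood apart in ways that touch every value below. Totals ran between 76.0 and 95.6 M counts in 7 Olfr2+ columns (2A to 2D and 3A to 3C), between 29.9 and 37.6 M in the other 3 Olfr2+ columns (3D, 4A and 4B) and between 30.5 and 53.2 M in the 5 Olfr2- columns. The 7 columns over 60 M counts are called deep here and the 8 under it shallow, so every Olfr2- column is shallow. Counts of the Olfr2 gene went against the label, with 1, 9 and 8 in samples 2, 3 and 4 labelled Olfr2+ and 76, 34 and 35 in samples 1, 3 and 4 labelled Olfr2-, and directions below are those of the labels. In counts per 1000000 of the column total (CPM), the 10 macrophage markers, all with a count in every column, summed to between 7389 and 14797 in deep Olfr2+ columns, 2373 and 4109 in shallow Olfr2+ columns and 1416 and 8339 in Olfr2- columns. Of the genes behind the sort, Adgre1 (F4/80) was at 123 to 312, 46.0 to 84.3 and 9.48 to 235 CPM in these 3 sets, and Fcgr1 (CD64) at 0.544 to 103, 0.772 to 3.43 and 4.18 to 20.0 CPM. The 8 fibroblast markers summed to between 29475 and 36001 CPM in deep Olfr2+, 2271 and 4864 in shallow Olfr2+ and 2181 and 3896 in Olfr2- columns. The 6 B cell markers, Igkc foremost, summed to between 213 and 5391 CPM in deep Olfr2+, 35209 and 54905 in shallow Olfr2+ and 22930 and 41534 in Olfr2- columns. The part that these cells, the depth or the Olfr2 counts play in the results was not tested.

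Promoters are shown for 4 genes whose levels later separate the deep from the shallow columns, as the stretch between 250 bases before and 50 bases after the start of transcription in RefSeq on GRCm38.p6. Capitals mark matches, on either strand, to motifs of factors known to act on respiratory genes: CGCATGCG for NRF1, CCGGAAG for ETS factors such as GABPA, and AAGATGGC for YY1. The Atp5j promoter (chr16:84834927-84835226, minus strand, 1 of 2 starts listed) held all 3 motifs without overlap. For a gene with several starts, the window with the most matches was printed, so that of Atp5j was picked by its motifs. The Uqcrh promoter (chr4:116075021-116075320, minus strand) held the ETS motif, on the strand opposite to the gene. The windows of Cox7c (chr13:86046746-86047045, minus strand) and Ndufv3 (chr17:31519865-31520164, plus strand) did not hold these letters.
Atp5j: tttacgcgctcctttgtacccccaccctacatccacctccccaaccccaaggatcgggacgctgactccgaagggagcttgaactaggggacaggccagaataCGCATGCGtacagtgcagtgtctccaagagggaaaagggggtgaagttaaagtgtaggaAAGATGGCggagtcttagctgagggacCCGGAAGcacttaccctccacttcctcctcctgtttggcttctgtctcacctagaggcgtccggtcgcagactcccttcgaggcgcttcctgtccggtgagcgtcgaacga
Ndufv3: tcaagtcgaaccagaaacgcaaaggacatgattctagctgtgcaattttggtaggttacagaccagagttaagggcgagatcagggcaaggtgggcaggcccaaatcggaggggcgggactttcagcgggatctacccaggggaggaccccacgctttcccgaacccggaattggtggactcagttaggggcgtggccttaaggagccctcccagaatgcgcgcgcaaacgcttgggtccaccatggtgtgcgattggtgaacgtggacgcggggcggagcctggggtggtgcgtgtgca
Uqcrh: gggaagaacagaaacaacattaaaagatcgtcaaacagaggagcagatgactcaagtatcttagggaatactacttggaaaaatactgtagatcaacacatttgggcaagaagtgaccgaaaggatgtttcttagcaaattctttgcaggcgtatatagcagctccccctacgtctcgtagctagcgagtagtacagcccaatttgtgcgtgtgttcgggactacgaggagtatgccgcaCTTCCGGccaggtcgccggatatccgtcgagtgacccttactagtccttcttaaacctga
Cox7c: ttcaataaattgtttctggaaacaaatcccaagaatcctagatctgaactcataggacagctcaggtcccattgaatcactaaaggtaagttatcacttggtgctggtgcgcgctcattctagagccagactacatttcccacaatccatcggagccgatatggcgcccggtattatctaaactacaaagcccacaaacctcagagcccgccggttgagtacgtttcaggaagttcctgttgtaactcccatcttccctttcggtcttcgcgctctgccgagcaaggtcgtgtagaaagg

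Of the 86 members, 71 had promoters in the RefSeq table, 3 of them matched through an older symbol. The NRF1 motif was in promoters of 10 of the 71 genes (14.1%), among them Cycs, Uqcrc1, Cox6a1 and Atp5l, against 2.91% of 16044 protein-coding genes with a promoter of the same length. The ETS motif was in 16 members (22.5%), among them Sdhb, Sdhd, Cox8a and Ndufs8, against 13.2% of the coding genes. The YY1 motif was in 11 members (15.5%), among them Ndufa3, Ndufa9, Ndufs4 and Atp5f1, against 3.63% of the coding genes. At least 1 of the 3 was in 31 members (43.7%), against 18.2% of the coding genes. A match describes the letters only.

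All members together took 0.634% to 1.08% of the counts in Olfr2+ columns and 0.4% to 0.849% in Olfr2- columns. Their summed level was 6340 to 10775 CPM in deep Olfr2+ columns, 7744 to 8738 in shallow Olfr2+ columns and 3998 to 8488 in Olfr2- columns. The lowest columns were Olfr2- 1A and Olfr2- 3B, and the other 3 Olfr2- columns overlapped the Olfr2+ ones. In the summed samples the members averaged 8237 ± 283 CPM in Olfr2+ and 6329 ± 2020 CPM in Olfr2- cells (SD, n = 3 each). The wider spread in Olfr2- cells came from sample 1, a lone column at 3998 CPM, since samples 3 and 4 were at 7559 and 7430 CPM. A count was found for 79 of the 86 genes in every column, and 76 averaged 10 CPM or more over the 15 columns.

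**Figure D1:**
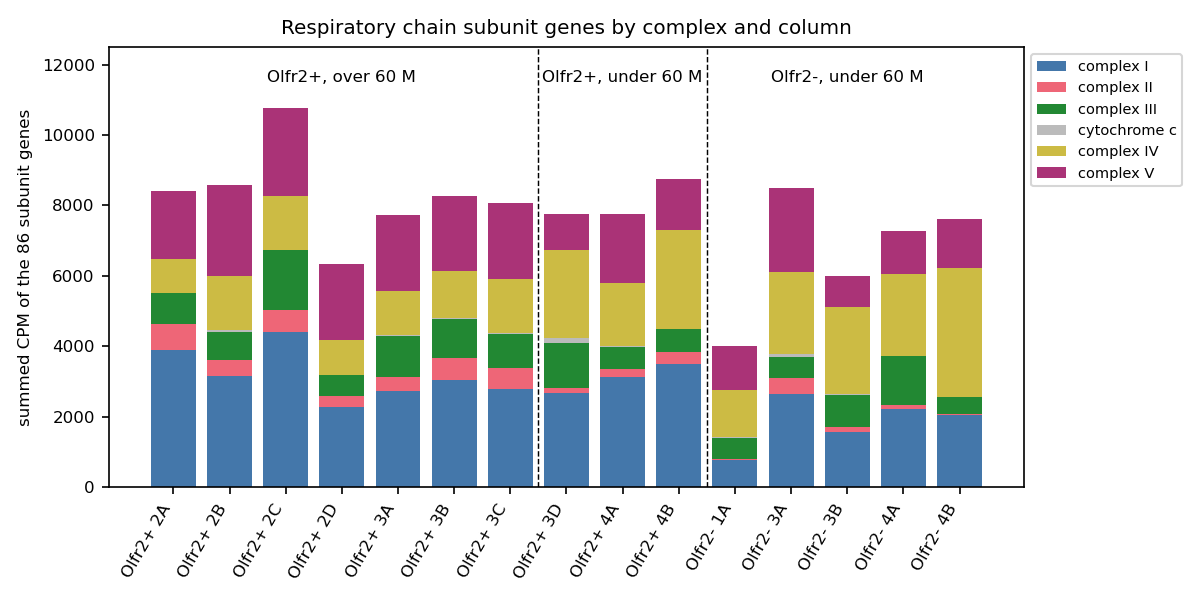
Summed CPM of the 86 subunit genes in each of the 15 columns, stacked by complex, with deep Olfr2+ columns on the left, shallow Olfr2+ columns in the middle and Olfr2- columns on the right. Olfr2- 1A has the lowest bar at 3998 CPM and Olfr2+ 2C the highest at 10775 CPM, and complex IV fills more of the bar in the shallow columns.

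The share of each complex in the members' sum was followed as well. Genes named for complex I, Ndufa4 among them, took between 34.5% and 46.1% of the members' CPM in the 10 Olfr2+ columns. They took 19.5%, 31.0%, 25.9%, 30.6% and 26.9% in Olfr2- columns 1A, 3A, 3B, 4A and 4B, so the labels did not overlap, deep or shallow. In the summed samples the complex I share was 38.5 ± 2.69% in Olfr2+ and 26.0 ± 5.64% in Olfr2- cells (SD, n = 3 each). This share does not depend on the scaling of the libraries, but it was picked from 5 complexes after its values were seen and has no test. It leaned on Cox4i1, which reached 1559 and 2100 CPM in Olfr2- 3B and 4B. Without that gene the complex I share was 36.7% to 46.7% in Olfr2+ columns and 20.2% to 37.1% in Olfr2- columns, which just overlap. Without the highest member of each complex it was 39.4% to 53.5% in Olfr2+ and 22.1% to 42.8% in Olfr2- columns, which also overlap. Complex IV genes took 11.3% to 18.9% in deep Olfr2+ columns, 23.2% to 32.1% in shallow Olfr2+ columns and 27.5% to 48.0% in Olfr2- columns. That order followed the depth sets, since deep and shallow Olfr2+ columns did not overlap while shallow Olfr2+ and Olfr2- columns did. Complex II took 1.56% to 8.85% in Olfr2+ and 0.433% to 5.56% in Olfr2- columns, complex III 7.42% to 16.8% and 6.35% to 18.8%, and complex V 13.4% to 34.0% and 14.9% to 30.8%, with overlap in each.

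**Figure D2:**
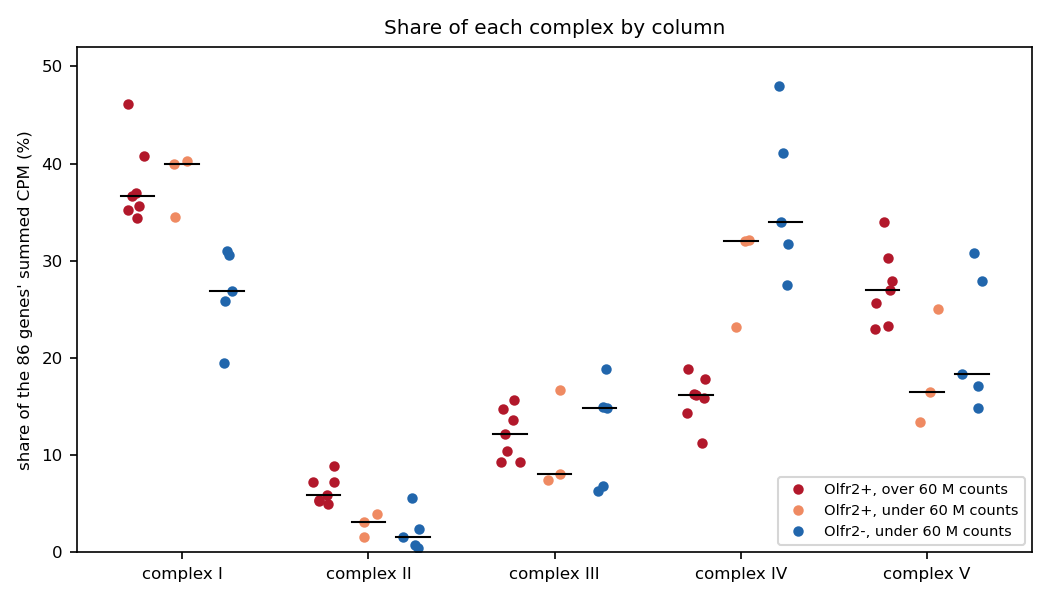
Share of each complex in the summed CPM of the 86 genes, in percent, with 1 point per column and a line at the median of each set, deep Olfr2+ on the left, shallow Olfr2+ in the middle and Olfr2- on the right of each complex. Complex I lies at 34.5% or more in every Olfr2+ column and at 31.0% or less in every Olfr2- column, while for complex IV the deep Olfr2+ columns lie below all shallow columns.

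Set against the mitochondrial genome, the members summed to 0.255 to 0.545 of the CPM of the 13 mitochondrially encoded subunits in deep Olfr2+ columns, 0.662 to 1.03 in shallow Olfr2+ columns and 0.462 to 1.02 in Olfr2- columns. The mitochondrial sum itself was 17730 to 28824 CPM in deep Olfr2+, 8505 to 11732 in shallow Olfr2+ and 5100 to 13725 in Olfr2- columns. The ratio was thus low where this sum, its denominator, was high. In deep columns the sum rested largely on mt-Cytb, at 6967 to 15333 CPM, and mt-Co1, at 4346 to 6792 CPM. Other genes were lower there, such as mt-Nd2, at 574 to 1869 CPM against 2095 to 3593 in shallow Olfr2+ columns. Likewise mt-Nd6 was at 143 to 445 against 742 to 1246 CPM. The genes mt-Nd3, mt-Nd4l, mt-Co2, mt-Co3, mt-Atp6 and mt-Atp8 held 20.8 CPM or less in every column. In bulk samples, fewer cells of a type and less RNA per cell cannot be told apart.

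Per kilobase of exon, the scale on which genes can be compared, the highest members were small structural subunits of complexes IV, I and III. Averaged over the 15 columns, Cox6a1 stood at 344 CPM per kb, Cox4i1 at 343, Ndufa2 at 330, Uqcrh at 201, Cox8a at 184 and Cox6b1 at 178. The larger subunits Atp5a1, at 113, Atp5b, at 101, Sdha, at 45.9, and Ndufs1, at 3.31 CPM per kb, were lower. Median levels by complex were 77.6 CPM per kb for complex III, 47.1 for complex I, 45.9 for complex IV, 41.0 for complex V and 36.7 for complex II, with the members of each spread far wider than these medians.

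Where a subunit has tissue-restricted isoforms, the widely used form had the higher mean level, and most restricted forms were near 0, with Cox6b2 and Cox7a1 raised in a few columns. Cox4i1, whose product is the common form of subunit 4, averaged 531 CPM, while Cox4i2, known from lung and hypoxia, averaged 0.288 CPM. Cox6a1 averaged 242 CPM and the heart and muscle form Cox6a2 only 0.00875 CPM, from 4 counts in Olfr2- 1A. Cox8a averaged 114 CPM, against 0.0752 for Cox8b and 0.0973 for Cox8c, and Cox7b averaged 55.9 CPM, against 0.0320 for Cox7b2. Cox7a2 averaged 148 CPM, and the heart and muscle form Cox7a1 was at 60.1 CPM in Olfr2+ 3D and at 3.17 or less in the other 14 columns. Cox6b2, known from testis, averaged 6.30 CPM, with 41.9 in Olfr2+ 2C and 18.6 in Olfr2- 4B. Of the 3 genes for the c subunit of the ATP synthase, which make the same mature protein, Atp5g3 averaged 64.3 CPM per kb, Atp5g1 4.24 and Atp5g2 1.06. The 7 striated muscle markers summed to 5.62 CPM or less in Olfr2+ columns and to 31.0 or less in Olfr2- columns.

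The level of a member varied widely between columns. Among the 76 genes at 10 CPM or more, the highest column exceeded the lowest by 65.4-fold at the median. In the 7 pairs of columns that share a library name, the members' median absolute log2 difference in CPM + 1 was between 0.64 and 1.69, and 10 to 34 of the 76 genes (13.2% to 44.7%) differed by over 4-fold. Of the other protein-coding genes at that level, 32.7% to 51.6% did so, and in 6 of the 7 pairs the share was lower among the members. Differences of that size separated columns with a common library name, so they bear on every comparison of a member between labels. Columns of a label were not copies of each other, since a chi-square test of their counts gave at least 610 per degree of freedom in every pair.

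**Figure D3:**
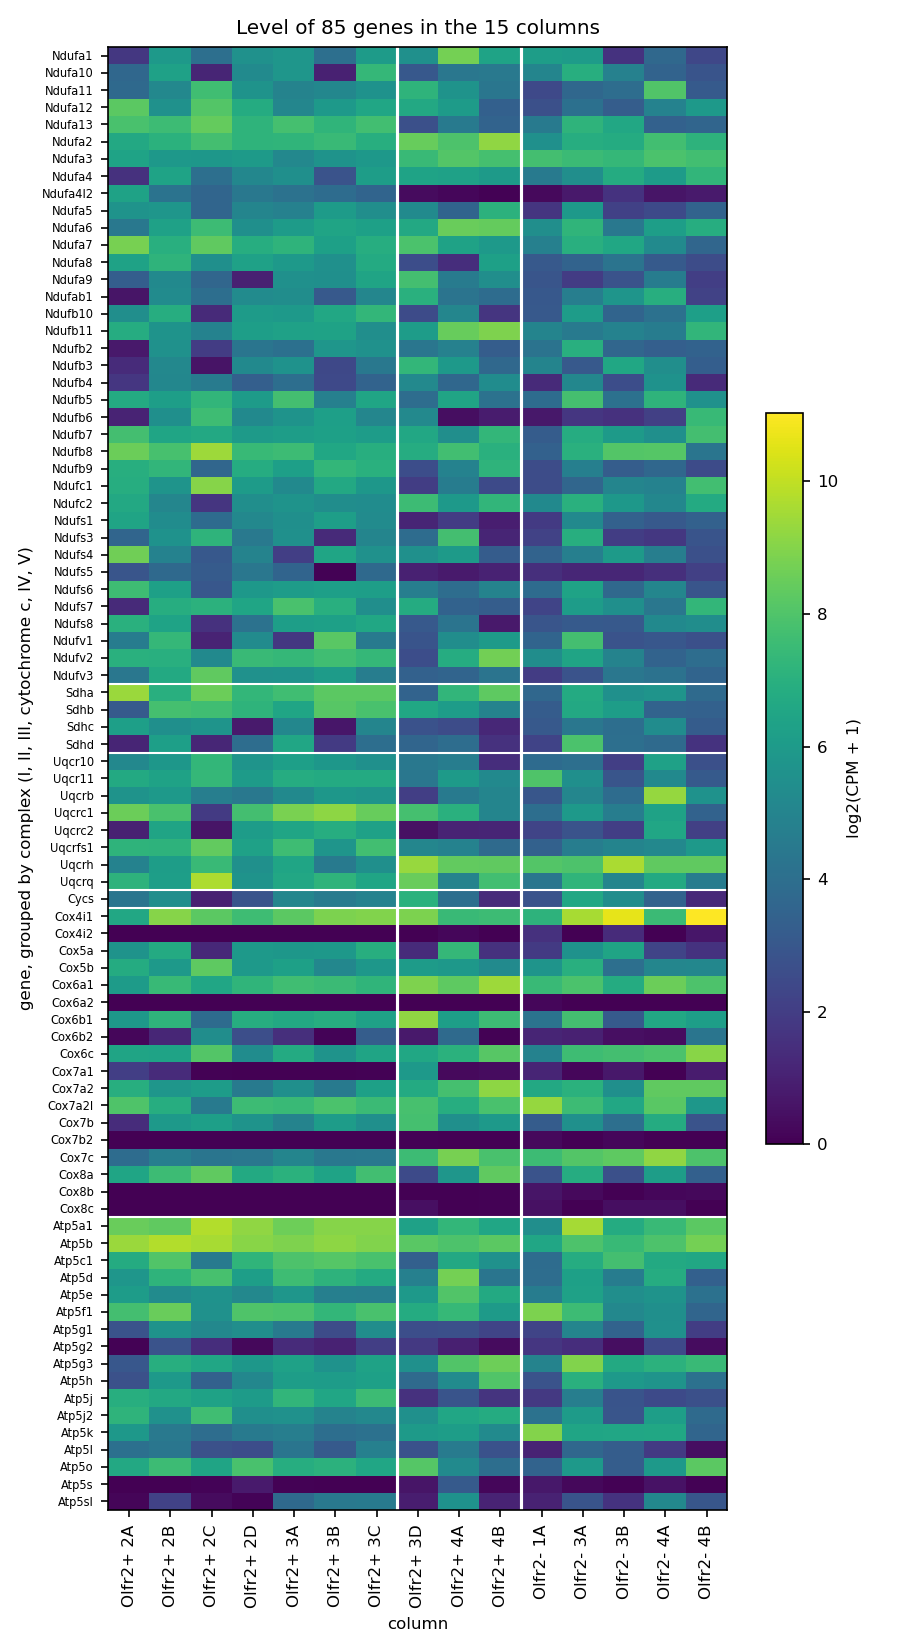
Level of 85 of the 86 genes, as log2(CPM + 1), in the 15 columns, with genes in rows grouped by complex and white lines between complexes and between deep Olfr2+, shallow Olfr2+ and Olfr2- columns. Dark rows mark the isoforms near 0, such as Cox6a2 and Cox8b, and many bright rows hold isolated dark cells, such as Ndufb3 at 0.477 CPM in Olfr2+ 2C.

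No member passed the test of Olfr2+ against Olfr2- samples. The edgeR quasi-likelihood test on summed counts, adjusted over 24362 genes by the Benjamini-Hochberg method, called 0 of the 83 members tested at an adjusted p under 0.05, against 1.58% of all genes in either direction. The smallest adjusted p of a member was 0.0593, for Uqcrc1. DESeq2 on the same samples called 19 members higher (12.5% of all 31244 genes it tested were) and 2 lower (8.19%), and limma-voom called 0 members and 0 genes. At an unadjusted p under 0.05 there were 28 members higher in Olfr2+ samples (17.1% of all genes tested were) and 2 lower, Cox4i2 and Cox8b (15% of all genes). Much of that excess went with level: among genes at 10 CPM or more, 27 of 76 members (35.5%) were higher, against 34.9% of all such genes, and 0 were lower, against 1.39%. The members' median log2 fold change was 2.06 and that of all genes tested was 0.24, but among genes at 10 CPM or more the medians were 2.04 for members and 1.80 for all. Values near the background are no result about the chain.

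With library totals in place of the TMM factors, the median over all genes was a log2 fold change of -0.87 and that over the members 0.82. Of the 83 members, 59 rather than 76 had a positive fold change. With library totals the members were not set beside all genes at 10 CPM or more. Among genes at 10 CPM or more with TMM factors, 71 of 76 members were positive (93.4%), against 84.7% of all. TMM factors lay between 0.485 and 0.868 for Olfr2+ samples and between 1.34 and 1.66 for Olfr2- samples. In the shallow columns alone, which hold 2 Olfr2+ and 3 Olfr2- samples, the test called 0 of 84 members and 0.0% of 29989 genes. At an unadjusted p under 0.05, 9 members were higher (4.85% of all genes) and Cox4i2 was lower (5.58% of all genes). Among genes at 10 CPM or more, 7 of 76 members were higher, against 8.56% of all, with medians of 1.11 for members and 0.61 for all. At that level 55 of 76 members had a positive fold change (72.4%), against 63.8% of all.

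Among the 38 genes named for complex I, the fold change was positive in 38 with TMM factors and in 30 with library totals. It was positive in 26 of 36 when TMM factors came from genes at 10 CPM or more. With the first of these scalings 84.7% of all genes at 10 CPM or more were positive, and the complex I median was 2.21. The 7 core subunits from nuclear genes hold the flavin, the iron-sulfur clusters and part of the ubiquinone site. Their median log2 fold change was 2.41, and that of the 31 other genes was 2.15. These 31 are accessory subunits but also Ndufa4, now assigned to complex IV, and its paralog Ndufa4l2. In the shallow columns 4 of the 7 core genes and 23 of the 31 others were positive. Of all genes at 10 CPM or more, 63.8% were. Ndufb9, an accessory subunit of the membrane arm, was at 99.9, 104 and 79.0 CPM in Olfr2+ samples 2, 3 and 4, against 4.86, 19.5 and 8.79 CPM in Olfr2- samples 1, 3 and 4. These samples did not overlap, and its log2 fold change was 4.25 with an SE of 1.23 (edgeR, adjusted p = 0.0633). Its columns did overlap, since Olfr2+ 3D held 5.05 CPM and Olfr2- 3A 26.0 CPM.

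Ndufv2, a core subunit with an iron-sulfur cluster, was at 117, 155 and 247 CPM in Olfr2+ samples, against 41.2, 64.1 and 12.1 CPM in Olfr2- samples. The samples were again separate, with a log2 fold change of 3.20 with an SE of 1.07 (edgeR, adjusted p = 0.0798). Ndufa9, an accessory subunit of the arm that reduces ubiquinone, was at 15, 77.0 and 31.8 CPM in Olfr2+ samples, against 6.50, 4.10 and 14.7 CPM in Olfr2- samples. The lowest Olfr2+ sample stood barely above the highest Olfr2- sample, and the log2 fold change was 3.40 in all columns and 4.63 in the shallow ones. Ndufa3, an accessory subunit, had the lowest log2 fold change of complex I, 0.32 with an SE of 0.95 (edgeR, adjusted p = 0.816). Its samples were at 64.8, 62.8 and 248 CPM in Olfr2+ and at 215, 174 and 223 CPM in Olfr2- cells, with Olfr2+ sample 4, which has shallow columns only, apart from the other Olfr2+ samples.

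Complex II is succinate dehydrogenase, shared with the tricarboxylic acid cycle. Sdha, the flavoprotein, was at 324, 236 and 224 CPM in Olfr2+ samples, against 11.8, 84.6 and 34.6 CPM in Olfr2- samples, with no overlap. Its log2 fold change was 3.76 with an SE of 1.06 (edgeR, adjusted p = 0.0609). Sdhb, the iron-sulfur subunit, was at 146, 186 and 50.7 CPM in Olfr2+ samples, against 8.30, 89.8 and 10.1 CPM in Olfr2- samples, which overlapped through Olfr2- sample 3. Sdhc and Sdhd form the membrane anchor. Sdhd was at 23.9, 35.2 and 9.01 CPM in Olfr2+ samples, against 3.61, 158 and 8.36 CPM in Olfr2- samples. The high value came from column 3A alone, with 243 CPM, and the log2 fold change of Sdhd was -0.20 with that sample and 3.41 without it.

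In complex III, Uqcrc1, a core protein, was at 204, 430 and 85.3 CPM in Olfr2+ samples, against 14.9, 47.3 and 50.1 CPM in Olfr2- samples. The samples did not overlap and the log2 fold change was 3.86 with an SE of 1.08 (edgeR, adjusted p = 0.0593), yet column Olfr2+ 2C held 2.66 CPM, below every Olfr2- column. The other core protein, Uqcrc2, was at 39.9, 82.0 and 1.20 CPM in Olfr2+ samples, against 3.74, 5.0 and 53.3 CPM in Olfr2- samples, with overlap. Its log2 fold change was 2.28 in all columns and -3.86 in the shallow ones, neither past the test. Uqcrfs1, the Rieske iron-sulfur protein, was at 176, 139 and 21.7 CPM in Olfr2+ samples, against 9.68, 26.8 and 46.1 CPM in Olfr2- samples. Uqcrb, the ubiquinone-binding subunit, was at 39.7, 42.0 and 26.1 CPM in Olfr2+ samples, against 6.79, 25.4 and 374 CPM in Olfr2- samples. Column 4A, with 623 CPM, set the high value, and the log2 fold change of -0.65 became 2.19 without that sample. Cycs, the mobile carrier between complexes III and IV, was at 17.3, 41.2 and 8.91 CPM in Olfr2+ samples, against 6.04, 75.4 and 6.45 CPM in Olfr2- samples, which overlapped. Its log2 fold change was 0.70 with an SE of 1.34 (edgeR, adjusted p = 0.708).

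Complex IV had a median log2 fold change of 1.26, the lowest of the multi-subunit complexes with all columns but not in the shallow columns, where complex IV was at 0.95, complex II at 0.20 and complex III at 0.53. With all columns 11 of 15 tested genes were positive with TMM factors and 8 of 15 with library totals. Some of these 15 lay under 10 CPM. At a mean of 10 CPM or more with the TMM factors kept, 9 of 11 were positive. With TMM factors 84.7% of all genes at 10 CPM or more were positive. The complex IV median was -0.07 when TMM factors came from genes at 10 CPM or more. Whether it differs from the other complexes was not tested. Cox4i1 was at 283, 425 and 185 CPM in Olfr2+ samples, against 141, 1067 and 1014 CPM in Olfr2- samples, and its log2 fold change was -0.15 with an SE of 0.87 (edgeR, adjusted p = 0.906). The Olfr2- samples enclosed all 3 Olfr2+ samples. Cox8a, a small membrane subunit, was at 179, 122 and 172 CPM in Olfr2+ samples, against 6.10, 72.4 and 43.2 CPM in Olfr2- samples, without overlap. Its log2 fold change was 3.10 with an SE of 1.11 (edgeR, adjusted p = 0.0897). Cox7c, another small subunit, was at 19.5, 44.8 and 342 CPM in Olfr2+ samples, against 190, 287 and 444 CPM in Olfr2- samples, and its log2 fold change was -0.33 with an SE of 1.00 (edgeR, adjusted p = 0.820). Ndufa4, named for complex I but now assigned to complex IV, was at 34.3, 45.5 and 72.3 CPM in Olfr2+ samples, against 21.9, 67.9 and 103 CPM in Olfr2- samples.

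In complex V, the catalytic beta subunit Atp5b was at 712, 486 and 271 CPM in Olfr2+ samples, against 92.4, 218 and 327 CPM in Olfr2- samples, which overlapped. Its log2 fold change was 2.50 with an SE of 0.90 (edgeR, adjusted p = 0.0896). The alpha subunit Atp5a1 was at 539, 426 and 128 CPM in Olfr2+ samples, against 42.9, 516 and 231 CPM in Olfr2- samples. Atp5d, the delta subunit of the central stalk, was at 126, 134 and 242 CPM in Olfr2+ samples, against 14.2, 56.8 and 67.7 CPM in Olfr2- samples, without overlap. Atp5k, the e subunit of the membrane part, ran the other way, at 28.3, 24.5 and 55.0 CPM in Olfr2+ samples, against 504, 89.8 and 58.0 CPM in Olfr2- samples. The groups were separate by a narrow margin, and the log2 fold change was -1.39 with an SE of 1.09 (edgeR, adjusted p = 0.342), or -0.13 without Olfr2- sample 1. Atp5k-ps2, a processed pseudogene, held 12.9 CPM in the same column, Olfr2- 1A, and 0.953 CPM on average, and whether the pair shares reads was not tested. Atp5s and Atp5sl carry the Atp5 name without encoding subunits, and averaged 0.710 and 10.7 CPM.

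**Figure D4:**
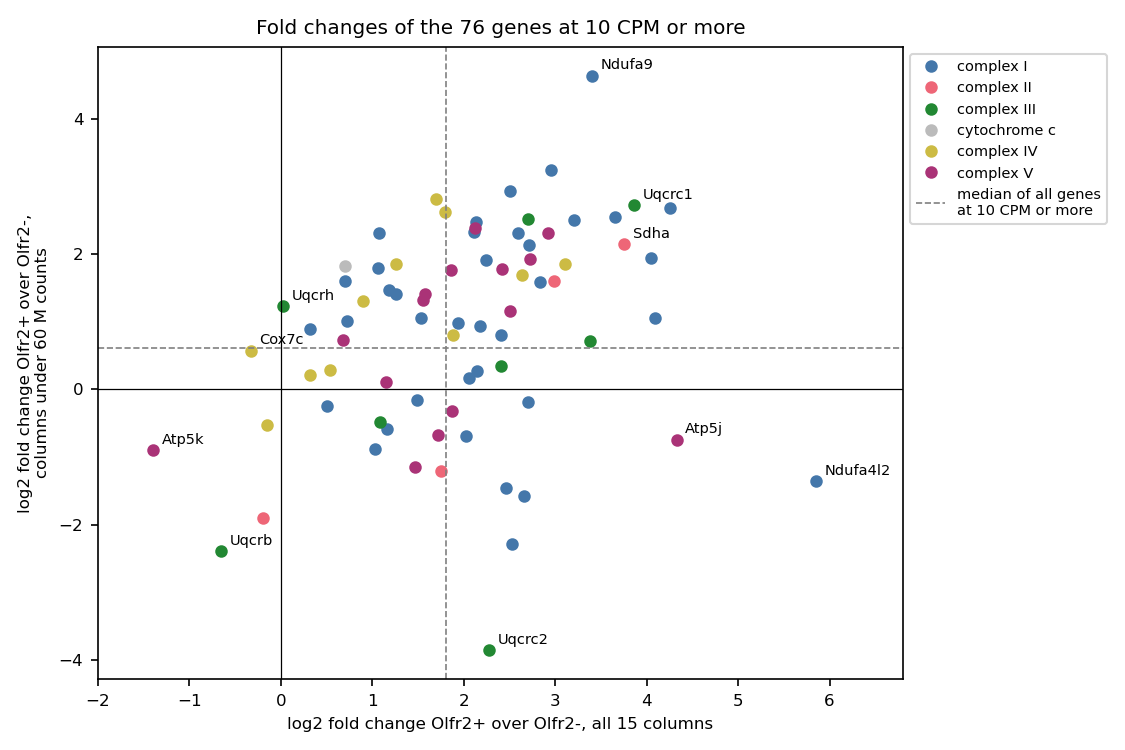
Log2 fold change of Olfr2+ over Olfr2- samples for the 76 genes at 10 CPM or more, with all 15 columns on the horizontal axis and the shallow columns alone on the vertical axis, coloured by complex, with dashed lines at the medians of all genes at that level. Ndufa4l2 and Atp5j lie far to the right at 5.85 and 4.33 but below 0 in the shallow columns, at -1.35 and -0.74.

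Counted over samples, 10 members had all 3 Olfr2+ values above all 3 Olfr2- values (6.21% of all genes tested did): Atp5d, Atp5l, Cox8a, Ndufa8, Ndufa9, Ndufb9, Ndufv2, Sdha, Uqcrc1 and Uqcrq. The 3 members in the opposite order were Atp5k, Cox4i2 and Cox8b (29.8% of all genes). Among genes at 10 CPM or more, the counts were 10 of 76 (14.4% of all) and 1 of 76 (3.25% of all). Over columns, 0 of the 83 members separated the labels in either direction (0.0821% of all genes tested were higher in every Olfr2+ column and 1.78% lower).

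The deep and shallow columns were separate for 7 of the 76 genes at 10 CPM or more, 4 higher and 3 lower in the deep ones, which is close to the share of all genes and no result about the chain. Atp5b, Atp5j, Ndufa4l2 and Ndufv3 were higher in all 7 deep columns than in all 8 shallow ones (3.74% of all genes were), and Cox7c, Ndufa3 and Uqcrh were lower (2.33% of all genes). Ndufa4l2, a paralog of Ndufa4 that hypoxia induces and that lowers respiration, ran between 10.6 and 81.5 CPM in deep Olfr2+ columns, with 0.236, 0.160 and 0.0335 CPM in shallow Olfr2+ columns and 0.197 to 2.04 CPM in Olfr2- columns. Its log2 fold change of 5.85 with an SE of 1.89 (edgeR, adjusted p = 0.0768) was the largest of the members at 10 CPM or more, and in the shallow columns alone it was -1.35. The gene passed that level, with a mean of 11.8 CPM, only through the deep columns, so its separation and its rank follow in part from the filter. Atp5j, coupling factor 6 of the stalk, ran between 66.1 and 188 CPM in deep Olfr2+ columns, with 1.95, 6.31 and 2.14 CPM in shallow Olfr2+ columns and 2.53 to 25.5 CPM in Olfr2- columns. Ndufv3, a small flavoprotein subunit, ran between 19.9 and 326 CPM in deep Olfr2+, 9.84 and 17.8 in shallow Olfr2+ and 2.89 and 19.9 in Olfr2- columns, with its edges nearly touching.

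In the other direction, Cox7c ran between 13.8 and 32.0 CPM in deep Olfr2+ columns, with 186, 431 and 230 CPM in shallow Olfr2+ columns and 190 to 595 CPM in Olfr2- columns. Uqcrh, the hinge protein of complex III, ran between 22.7 and 179 CPM in deep Olfr2+, 328 and 644 in shallow Olfr2+ and 248 and 788 in Olfr2- columns. Ndufa3 ran between 34.6 and 83.5 CPM in deep Olfr2+, 178 and 271 in shallow Olfr2+ and 164 and 237 in Olfr2- columns. For these 3 genes the shallow Olfr2+ columns lay among or beside the Olfr2- columns. Over the 76 genes, Spearman's rho between exon length and the log2 ratio of deep to shallow columns was 0.26, against -0.13 over 8323 other protein-coding genes, a description over genes that share all libraries. The summed fibroblast and B cell markers did not overlap between the same sets of columns either, and their part was not tested.

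**Figure D5:**
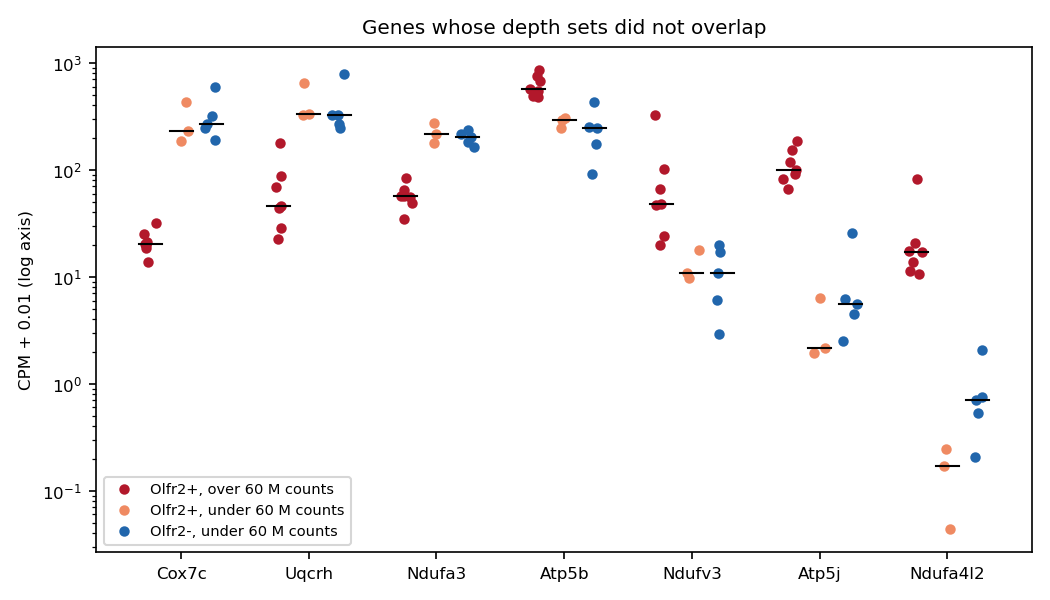
CPM + 0.01 on a log axis for the 7 genes at 10 CPM or more whose deep and shallow columns did not overlap, with 1 point per column and a line at each median, deep Olfr2+ on the left, shallow Olfr2+ in the middle and Olfr2- on the right of each gene. Cox7c, Uqcrh and Ndufa3 lie lower in the deep columns and Atp5b, Ndufv3, Atp5j and Ndufa4l2 higher, whereas shallow Olfr2+ and Olfr2- columns lie near each other.

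Genes around the chain were read in the same edgeR test, in which 32.1% of all genes had an unadjusted p under 0.05 in either direction. The median log2 fold change was 0.24 over all genes tested and 1.80 over genes at 10 CPM or more. In the shallow columns these medians were -0.43 and 0.61. The lists were not matched to genes of their level, and some of their genes were near 0. Of the 14 complex I assembly factors tested, 0 passed and 3 had an unadjusted p under 0.05, with a median log2 fold change of 2.34 in all columns and -0.51 in the shallow ones. Of the 29 assembly factors of the other complexes 0 passed and 13 had an unadjusted p under 0.05 (median 2.15, and 0.51 in the shallow columns). Of 16 genes of the tricarboxylic acid cycle 0 passed and 10 had an unadjusted p under 0.05 (median 2.71, and 0.86 in the shallow columns), and of 18 genes of import and cristae 0 passed and 6 did so (median 1.81, and 0.46 in the shallow columns). The 14 regulators of mitochondrial gene expression, Nrf1, Yy1 and Gabpa among them, had a median of 0.22, and 0.10 in the shallow columns, with 0 under either threshold. Of 13 mitochondrially encoded subunits 0 passed and 5 had an unadjusted p under 0.05 (median 0.69, and 1.08 in the shallow columns). These medians include genes near the floor, such as mt-Nd4l and mt-Atp8. Of 11 other nuclear genes of the chain 1 was called higher, Etfa, where 1.12% of all genes tested were. It encodes a subunit of the electron transfer flavoprotein, which feeds electrons from fatty acid oxidation into ubiquinone. Etfa averaged 112 ± 22.0 CPM in Olfr2+ and 8.34 ± 3.83 CPM in Olfr2- samples (SD, n = 3 each), a log2 fold change of 4.93 with an SE of 1.22 (edgeR, adjusted p = 0.0437). In the shallow columns its log2 fold change was 3.76 with an edgeR adjusted p of 0.450. Its columns overlapped, at 2.995 to 267 CPM in deep Olfr2+, 8.69 to 180 in shallow Olfr2+ and 3.12 to 16.9 in Olfr2- columns.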

How the data were processed

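Sorted aortic macrophages were profiled by low-input Smart-Seq2. The submitters' processing notes name GRCm39, STAR 2.7.1, DRAGEN and DESeq2 1.34 without their roles. The deposited table holds raw counts of reads per gene for 15 columns, and neither the strand setting nor the treatment of reads with several matches is stated in the sources used. The protocol in the labels describes no molecular identifiers, so amplified copies count as reads and precision from depth covers counting error only.

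CPM is the count divided by the column total in M counts, which ran from 29.9 to 95.6 M. Exon lengths came from GENCODE M21, matched by gene ID for 99.1% of features and for all 86 members. Counts of a number were summed to 3 samples per label and tested with edgeR 4.0.16 (R 4.3.3), using TMM factors, its low-count filter, the quasi-likelihood F test and adjustment over all genes tested. Adjusted p under 0.05 counted as a call. 38 members were named by a rule: the 3 highest levels per kb of each complex, the highest and lowest fold change at 10 CPM or more, and isoforms. Other genes named in the text were chosen after their values were seen. The members and gene lists were chosen with earlier results of these data known. Alternatives were other scalings, filters and tools (DESeq2 1.42.0, limma 3.58.1), columns or library names as replicates, shallow columns alone, a depth term, a replicate block and leaving out each sample. Pseudogenes named after members numbered 4, each averaging under 1 CPM, and other pseudogenes were not analysed here. The values of 1 member are not reported here.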

Additional observations from a re-analysis of the deposited data

Results flagged for a closer look

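Summed CPM was screened in 14 sets of columns for a value far from the rest of its label, and 2 stood out, where the 95% level of the screen marks about 1 in 20 sets by chance. Complex II summed to 472 CPM in column Olfr2- 3A and to between 31.2 and 146 CPM in the other 4 Olfr2- columns. Sdhd held 243 CPM of it, and without Sdhd the column still summed to 229 CPM, against 27.6 to 130 CPM in the other 4. Cycs was at 132 CPM in column Olfr2+ 3D and between 1.04 and 42.2 CPM in the other 9 Olfr2+ columns. Column 3D is the shallow column that shares a library name with the deep column 3C, where Cycs was at 28.9 CPM. The cause of either was not tested.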

How the results depend on the processing

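With 3 samples a label and columns of unequal depth, calls moved with the unit of replication and the tool. The count of members called higher, 0 with the settings used above, was 1 without the low-count filter (1.5% of all genes were), 3 at a mean of 10 CPM or more with the TMM factors kept (6.17%; added after seeing the data), 5 with columns (3.18%) and 9 with library names (3.4%) as replicates, and 19 with DESeq2 (12.5%). Leaving out each sample gave 0 to 2, with Ndufa4l2 and Uqcrc1 called without Olfr2+ sample 4 (3.25% of all genes). That sample has shallow columns only, and without it 3D is the only shallow Olfr2+ column, so label and depth nearly coincide. Members called lower were 2 with DESeq2 (8.19%) and 1 with library names (2.62%). The median log2 fold change of 2.06 was 0.82 with library totals and 0.48 with TMM factors from genes at 10 CPM or more. It was positive under every alternative run, but at 10 CPM or more the median of all genes was positive too. With TMM factors from such genes, all genes had a median of 0.17, and 48 of 74 members were positive. With the TMM factors kept, the medians were 1.99 for members and 1.67 for all.

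Of 17 members followed through the settings that gave them a value, 9 changed sign in at least 1. Of all 83 tested, 19 had opposite signs in all and in shallow columns. In shallow columns and with a depth term, Atp5j was at -0.74 and -0.78, Ndufa4l2 at -1.35 and -1.42, Uqcrc2 at -3.86 and -3.89 and Cox7c at 0.57 and 0.51. Ndufa3 was at -0.10 with columns, -0.0081 with library names, -0.70 with library totals and -1.04 with TMM factors from genes at 10 CPM or more. The last pair of settings put Cycs at -0.38 and -0.69. Sdhd was at 0.16 with library names and 1.42 with limma-voom, which put Uqcrb at 0.86 and Cox4i1 at 0.17. Cox4i1 was at 0.0077 with DESeq2 and 0.00060 with library names. Leaving out samples gave -0.31 to 0.69 for Ndufa3, -0.93 to 3.41 for Sdhd, -1.39 to 2.19 for Uqcrb, -0.82 to 0.46 for Cox4i1 and -2.04 to 0.22 for Cox7c. The cause was not tested.

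The replicate numbers were not used to pair the samples above, since only 2 numbers are shared. The deviations correlated at 0.023 for number 3 and -0.046 for number 4, and at 0.042 and -0.067 between unlike numbers. With 3 samples a label and unequal depth, these values cannot decide whether the numbers pair samples. A replicate block called 0 members, with a median log2 fold change of 1.26. Every column comes from 100 to 200 sorted cells and 18 cycles of amplification without molecular identifiers, so the depth of a column covers counting error only. Against the spread of 3 samples, even the log2 fold change of 5.85 of Ndufa4l2 did not pass with the settings used above.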
